A study of Mus musculus with 5 samples.

Results

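Agtr2, Agtr1a, Agt and Ace, 4 genes of the renin-angiotensin system, were followed through the cell types of the mouse temporomandibular joint (TMJ) disc, the fibrous pad between the lower jaw and the skull. They were taken by gene symbol and are 4 of the 27998 genes listed in the deposited single-cell matrices. Agtr2 was selected on its measured level, which went from high in the newborn stroma to 0 counts in the aged stroma, so its levels over age are given as a description. Agtr1a, Agt and Ace were added as the other receptor, the ligand precursor and the processing enzyme.

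Angiotensinogen, the product of Agt, is a secreted precursor that renin cleaves to angiotensin I, and angiotensin-converting enzyme (Ace) on cell surfaces, mostly of blood vessel endothelium, turns that into angiotensin II. The type 1 receptor (Agtr1a and Agtr1b in mice) makes smooth muscle contract and fibroblasts grow and deposit matrix, while the type 2 receptor (Agtr2) is often described as opposing it. Agtr2 is known for wide expression in fetal mesenchyme that is largely lost in adult tissues, and Agtr1a for its place in smooth muscle cells and pericytes of vessel walls.

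The study asked how the cells of the disc change through postnatal life and after injury. By the labels all mice were WT and of strain C57BL/6, and each condition was 1 library of TMJ disc cells. The normal, untreated libraries came from newborn pups at 3 d (both sexes), and from juvenile (3 w), adult (16 w) and aged (78 w) males. The aged library is given as 78 w by the labels and the paper, but the name under which its data were deposited carries a lower age in months. The injured library came from mice aged 7 w whose disc had been injured at its anterior band with needles at 5 w of age, and their sex is not given. The labels describe that injury as a pinch and the paper as punctures, and the paper's section on the injury model names mice with Myh11-CreER and a Tm reporter allele in place of WT, so the genotype of these mice is uncertain. With 1 library per condition there was no replicate, so no test between conditions was possible. Intervals are 95% and cover counting error only.

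After removal of cells with at most 200 unique molecular identifiers (UMIs, the count of captured RNA molecules) or more than 30% mitochondrial UMIs, 8467 to 14959 cells per library remained. Library totals ran from 31585993 UMIs (injured) to 125427849 (3 w). The median per cell was 3299 UMIs in the injured library and 7721 to 12496 in the others. Clusters were named by marker genes, and 3 stromal-like clusters with 10369, 7914, 7687, 8340 and 6845 cells (in the order 3 d, 3 w, 16 w, 78 w, injured) carry most of what follows. The 7 stromal markers were collagen and small proteoglycan genes and the receptor gene Pdgfra. Their sum in these cells lay between 33274 CPM at 3 d and 60720 CPM at 3 w. CPM are the UMIs of a gene scaled to 1000000 UMIs of the same cells. Cluster 5 stayed unnamed, since its cells were shallow and mixed Schwann, muscle and stromal genes. Between 19 and 39 cell barcodes were shared by any pair of libraries. In the stroma of the 3 w, 16 w and 78 w libraries, cells with UMIs of Y-linked genes and no Xist, the RNA of the inactive X chromosome, numbered 5486 to 6999, against at most 5 of the reverse. In the injured stroma 5373 of 6845 cells had Xist and 0 had Y-linked UMIs alone. By the paper, the Myh11-CreER transgene lies on the Y chromosome, and only males carrying it were used for lineage tracing. The injured stroma did not show cells of such males. Injury, age, depth and the sex type of the cells therefore cannot be told apart between the injured library and the 3 w, 16 w or 78 w library.

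Agtr2 (ENSMUSG00000068122) lies on chrX:21484544-21489164 on the plus strand of GRCm38. Agtr1a (ENSMUSG00000049115) lies on chr13:30336441-30382867, plus strand. Agt (ENSMUSG00000031980) lies on chr8:124556534-124569706, minus strand. Ace (ENSMUSG00000020681) lies on chr11:105967945-105989964, plus strand, and overlaps the annotated antisense gene Gm11651, and whether counting used strand is not stated in the sources used here. RefSeq promoter windows were matched for Agtr2, Agt and Ace. They are shown because transcripts of these genes moved in different directions over age, and the letters let a reader compare their core promoters. The 250 bases before each start site follow, 5′ to 3′ on the gene's strand, from RefSeq on GRCm38.p6. Capitals mark TATAA and CCAAT on either strand, and positions count back from -1, the base before the start site.
Agtr2, chrX:21484374-21484623, plus strand: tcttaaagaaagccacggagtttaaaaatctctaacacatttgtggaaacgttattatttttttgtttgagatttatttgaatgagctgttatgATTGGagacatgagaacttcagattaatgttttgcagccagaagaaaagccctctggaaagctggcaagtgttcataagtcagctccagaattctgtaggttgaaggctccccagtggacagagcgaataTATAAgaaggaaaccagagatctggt
Agt, chr8:124569707-124569956, minus strand: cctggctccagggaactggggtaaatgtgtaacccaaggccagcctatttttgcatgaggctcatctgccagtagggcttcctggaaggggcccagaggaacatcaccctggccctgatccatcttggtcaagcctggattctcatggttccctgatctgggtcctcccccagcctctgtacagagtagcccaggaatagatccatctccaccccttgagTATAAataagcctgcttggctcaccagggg
Ace, chr11:105967698-105967947, plus strand: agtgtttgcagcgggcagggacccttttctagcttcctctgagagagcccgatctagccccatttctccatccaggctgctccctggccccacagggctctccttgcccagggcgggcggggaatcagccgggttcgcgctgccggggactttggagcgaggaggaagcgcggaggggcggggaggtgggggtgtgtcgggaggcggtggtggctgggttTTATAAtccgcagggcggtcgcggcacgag
All 3 printed stretches held TATAA close before the RefSeq start site, at -26 in Agtr2, at -30 in Agt and at -29 in Ace, where its complement overlapped it by 4 bases. The Agtr2 stretch ends at 21484623, past the start of the gene model given above, 21484544, so the sources place that start differently. CCAAT stood on the opposite strand of the Agtr2 promoter at -156. Over all 32851 RefSeq windows of 300 bases, 24.9% held TATAA and 37.4% held CCAAT on either strand. These shares count a match at any position, not only close before the start site. The Agtr2 window had 41.3% G and C, the Agt window 54.7% and this Ace window, the first of 2 for the gene, 69.7%, against a median of 52.7% over all windows. The second Ace window held no TATAA, and CCAAT stood on its opposite strand at -25. A match to these letters is a description and does not show that a factor binds.

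Agtr2 was abundant in the newborn stroma and nearly absent from the adult and aged stroma. At 3 d, 7431 Agtr2 UMIs were counted in stromal-like cells, or 77.4 CPM (75.7 to 79.2). At 3 w there were 193 UMIs, or 1.71 CPM (1.48 to 1.97). At 16 w there was 1 UMI among 7687 cells. At 78 w there was 0 among 8340 cells, which allows up to 0.0331 CPM at 3 counts and a share of up to 0.0360% of cells with a UMI. The injured stroma held 30 UMIs, or 1.08 CPM (0.729 to 1.54). The libraries thus lay far apart: the 3 d level was 45.2 times the 3 w level (39.2 to 52.4), and at least 2341 times the 78 w level when the floor of 3 counts stands for 0.

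**Figure D1:**
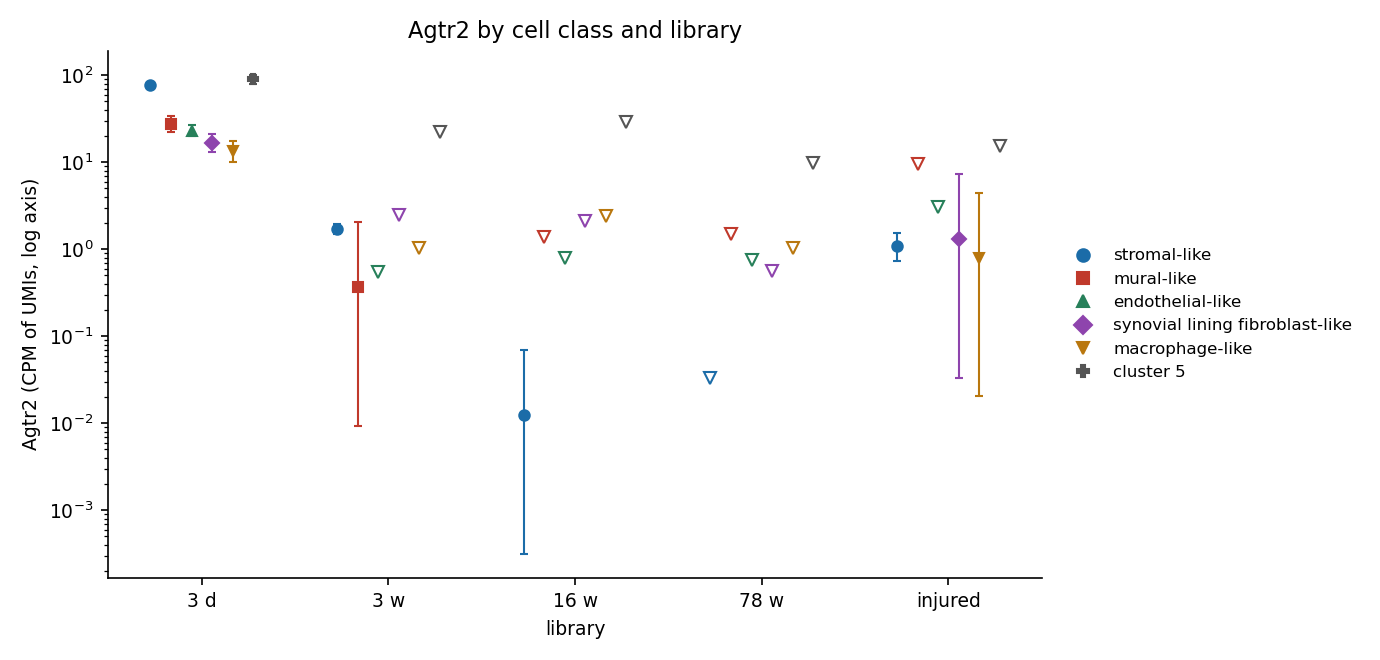
Agtr2 level in 6 groups of cells (colors and marker shapes) of the 5 libraries, in CPM of UMIs on a log axis, with exact Poisson 95% intervals as bars and the level of 3 counts as an open triangle where no UMI was found. The stromal-like level was 77.4 CPM at 3 d, 1.71 at 3 w and under the open triangle at 78 w, and every group at 3 d lay above its own later values.

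This loss is what selected the gene, so its place among other genes is a description only. In the 3 d stroma 1577 genes, Agtr2 among them, had at least as many UMIs as Agtr2, and Agtr2 was the 1 gene of these with 0 UMIs at 78 w. Of 12351 genes with at least 100 UMIs in the 3 d stroma, 21 had 0 in the 78 w stroma. The nearest abundant genes to it were Fgfbp1, which encodes a carrier of fibroblast growth factors and had 3741 UMIs at 3 d and 1 at 78 w, and Nefl, a neurofilament gene with 3382 and 3 UMIs. Both were picked after their values were seen. By the likeness of log2(CPM + 1) over 33 combinations of library and cell class with at least 50 cells, the genes most like Agtr2 among 15028 included Otor, Arxes1, Igfbp2 and Zim1 (Pearson r = 0.95 each). Igfbp2, which encodes a secreted binder of insulin-like growth factors, went from 719 CPM in the 3 d stroma to 0.419 CPM at 78 w. The 33 combinations share 5 libraries, so these correlations are descriptions of what was high at 3 d.

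Agtr2 was widely spread over newborn stromal cells rather than held by a few. Of 10369 cells, 3789 (36.5%, Clopper-Pearson interval 35.6 to 37.5%) had at least 1 UMI. Of the cells with a UMI, 2087 had 1, 874 had 2, 364 had 3, 198 had 4 and 266 had 5 or more, with a highest value of 14. The share depended on depth. From the shallowest to the deepest of 5 equal bins of cells it went from 23.1% to 53.3%, while the level lay between 72.6 and 90.2 CPM. Thinned to 1000 UMIs per cell, the expected shares were 7.24% at 3 d, 0.187% at 3 w and 0.126% after injury.

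Stromal-like cells also held most of the gene's UMIs in the newborn library, 88.7% of 8374. Other named classes at 3 d had lower levels. Cycling-like cells, which also carried 5 of 7 stromal markers, had 57.5 CPM. Mural-like cells, the pericytes and smooth muscle of vessel walls, had 27.8 CPM and endothelial-like cells 23.1 CPM. Synovial lining fibroblast-like cells had 16.9 CPM, macrophage-like cells 13.5 CPM and erythroid-like cells 4.46 CPM. These levels were set beside the summed stromal markers in the same cells. In endothelial-like cells Agtr2 was at 29.8% of its stromal level and the summed stromal markers at 29.0% of theirs. In macrophage-like cells the values were 17.5% and 21.4%, in mural-like cells 35.9% and 29.7%, and in erythroid-like cells 5.76% and 5.20%. In synovial lining fibroblast-like cells they lay further apart, at 21.8% and 44.2%. The comparison depended on the marker. Taken singly, Col1a1, Dcn, Lum, Fmod and Pdgfra stood at 20.0 to 30.2% in mural-like cells, below Agtr2. In macrophage-like cells they stood at 21.6 to 24.6%, above it. In endothelial-like and erythroid-like cells Agtr2 lay within their range. In synovial lining fibroblast-like cells they ran from 19.3% (Fmod) and 22.9% (Lum) to 257% (Pdgfra). Agtr2 UMIs were found in 9.76% of endothelial-like cells (median 5078 UMIs per cell) and 9.88% of macrophage-like cells (median 10529.5), cell types in which Col1a1, the gene of the main fibrillar collagen, was also detected in 83.6% and 88.4% of cells. The share of 36.5% in stromal-like cells (median 8351 UMIs) lay above both. Whether the Agtr2 UMIs in endothelial-like and macrophage-like cells came from those cells or from stromal RNA was not tested. Cycling-like cells had Agtr2 UMIs in 35.9% of cells.

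Outside the stroma few Agtr2 UMIs were left after 3 d. At 3 w there were 2 in cycling-like and 1 in mural-like cells, and none in endothelial-like cells. At 16 w and 78 w no UMI was found in any class outside the stroma. The injured library had 1 in synovial lining fibroblast-like and 1 in macrophage-like cells.

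Cluster 5 was the exception at 3 d, with 242 Agtr2 UMIs and 89.5 CPM (78.6 to 102). The summed stromal markers were at 30.04% of their stromal level in it, and Agtr2 at 115.6%. The genes that set its 134 cells with an Agtr2 UMI apart from the others were Msc, Myf5 and Pax7, transcription factors of muscle precursor cells, with ratios of 7.02 (4.50 to 11.3), 6.73 (3.94 to 12.0) and 5.51 (3.65 to 8.48). Acta1 and Mylpf, which encode the actin and a myosin light chain of mature muscle fibers, were lower in these cells, at 0.0650 and 0.0781 of the level in the others. Cells with a Pax7 or Myf5 UMI, a split chosen after those genes were seen, numbered 80. They had 203 CPM of Agtr2 (170 to 241), while the other 1424 cells had 52.8 CPM (43.3 to 63.8). Both genes were picked because they were higher in cells with an Agtr2 UMI. The difference therefore restates that choice and is no second result. The 80 cells had a median depth of 8489.5 UMIs against 743, and the part of depth in this difference was not tested.

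Within the newborn stroma, Agtr2 varied widely between groups of fibroblasts. When the 10369 cells were clustered again on their own, with the variable genes of the renin-angiotensin list left out, 9 subclusters were found. The highest level, 237 CPM (225 to 249) with UMIs in 68.4% of cells, was in subcluster 6. Its 702 cells led with Aldh1a2, which encodes a retinoic acid synthesizing enzyme, Il33, a cytokine gene, Abca8a, a lipid transporter gene, and the mesenchymal transcription factor gene Meox2. This subcluster had the lowest sums of chondrocytic markers (89.6 CPM, against up to 607 CPM) and of tenocyte markers (46.9 CPM, against up to 421 CPM). It also had the highest sum of hemoglobin and other erythroid markers, 2801 CPM against 342 to 1062 CPM elsewhere, and the part of that in its Agtr2 level was not tested.

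The next highest levels came from an interferon response group and a matrix group. Subcluster 9, with 170 cells that led with the interferon-induced genes Ifit1, Ccl5 and Rsad2, had 124 CPM (109 to 141). Subcluster 1, with 1953 cells and the leading genes C1qtnf3, Col25a1 and Eln (elastin), had 107 CPM (103 to 112). The lowest level, 29.9 CPM (26.0 to 34.3), was in subcluster 7, which led with Krtdap, Prg4 (lubricin, the boundary lubricant of joint surfaces) and Col22a1. The other 5 subclusters lay between 49.5 and 64.5 CPM. Among these were 2 that led with Fgfbp1 (50.1 and 64.5 CPM), the Tnn, Tnmd and Npy group (49.5 CPM) and the cells with proliferation genes (57.4 CPM). Intervals of the 2 lowest of these 5 overlapped, while those of subclusters 6, 7 and 2 did not overlap each other. Without subcluster 6 the 3 d stroma still had 66.0 CPM.

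**Figure D2:**
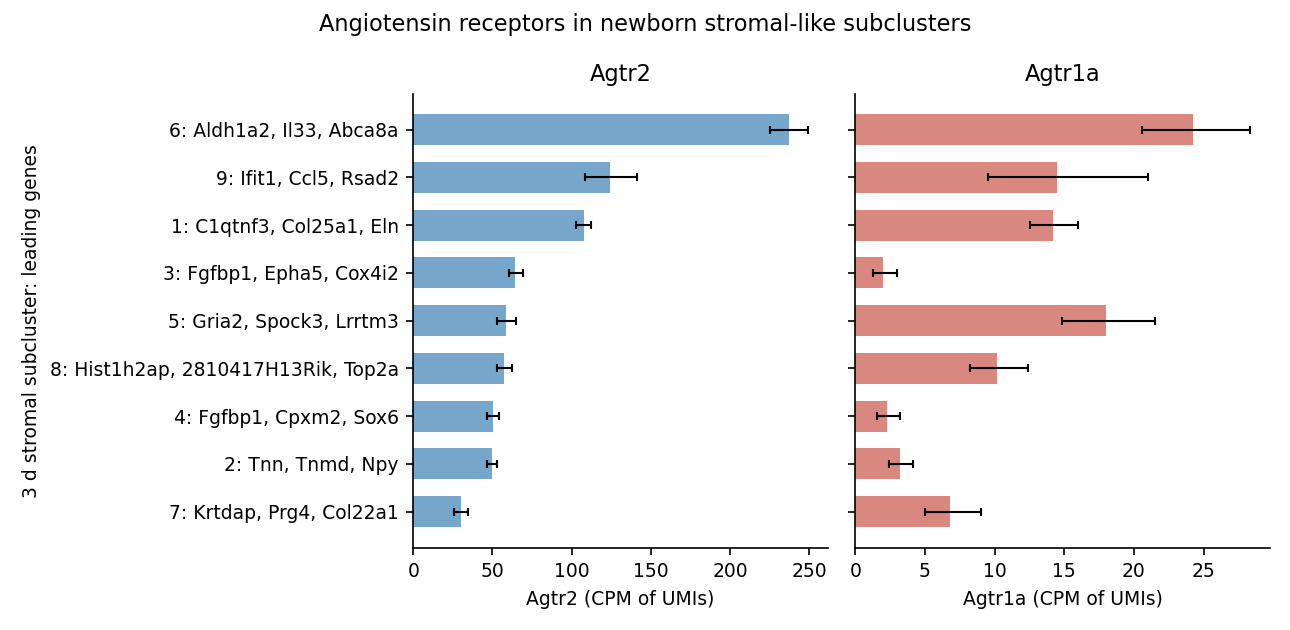
Agtr2 (left) and Agtr1a (right) in 9 subclusters of the 3 d stromal-like cells, named by 3 leading genes, as CPM of UMIs on linear axes from 0 with exact Poisson 95% intervals. Subcluster 6 had the highest level of both receptors, 237 CPM of Agtr2 and 24.2 CPM of Agtr1a, and subcluster 5 had much Agtr1a (18.0 CPM) beside a middling Agtr2 level (58.5 CPM).

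Cells with an Agtr2 UMI were compared with the 6580 stromal cells without one in the same library. By the rule of the largest ratios, the first 4 genes were Hba-x, Tpsb2, Cma1 and Mcpt4, each with most UMIs in a single cell (164 of 165, 200 of 213, 313 of 339 and 141 of 159). They describe those single cells, not Agtr2 cells as a group. Genes carried by many cells followed. Scn7a, a sodium channel gene, had a ratio of 4.52 (3.08 to 6.80) and was found in 78 of the Agtr2 cells. Abca8a had 3.64 (3.04 to 4.38) and Abca8b 2.96 (2.22 to 3.97), both genes of lipid transporters. C1s1, a complement protease gene, had 3.46 (2.71 to 4.45). All 6 markers of the synovial lining were lower in Agtr2 cells, with ratios from 0.152 for Htra4 to 0.565 for Tspan15. Fmod, which encodes a collagen-binding proteoglycan of tendon and disc, was at 0.684 (0.667 to 0.702). Of the 4 tenocyte markers, Kera and Tnmd were at 1.54 and 1.22. In subcluster 6, with the most Agtr2, the tenocyte markers Scx, Mkx and Kera had their lowest levels of all subclusters (11.8, 2.79 and 2.64 CPM). The ratios of Kera and Tnmd therefore do not stand for the tenocyte list. The 2 sets of cells had median depths of 9405 and 7837.5 UMIs.

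In the 3 w stroma, where 175 cells kept an Agtr2 UMI, the profile of these cells was different in part. Sfrp2, a secreted Wnt regulator gene, had a ratio of 4.69 (4.16 to 5.29), Mme, the gene of the peptidase neprilysin, 2.78 (2.07 to 3.67), and Kera 2.40 (2.11 to 2.72). The adventitial-type markers Pi16 and Ly6a were at 2.14 and 2.10.

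The 3 stromal-like clusters kept their order of Agtr2 level over the libraries with more than 1 UMI. Cluster 3, which led with Eln, C1qtnf3 and Pi16, had 89.5 CPM at 3 d, 2.95 CPM at 3 w and 2.92 CPM after injury. Cluster 1, which led with Lcn2, Chad and Ibsp, and cluster 2, with Chad and Myoc, had 51.4 and 56.7 CPM at 3 d. They had 1.15 and 2.06 CPM at 3 w, and 0.252 and 0.855 CPM after injury. Of the 30 UMIs of the injured stroma, 19 came from cluster 3. Cluster 3 held 6131 of 10369 stromal-like cells at 3 d and 1712 of 8340 at 78 w, and the part of this in the Agtr2 level was not tested.

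Agtr2 UMIs were also found in the injured stroma. The injured level of 1.08 CPM was 86.7 times the 16 w level, with an interval of 14.4 to 3538 that reflects the 1 UMI at 16 w. It was 0.631 of the 3 w level (0.414 to 0.930). The injured mice were 7 w old, between these libraries in age, and no uninjured library of that age was measured, so age and injury cannot be told apart. The sex type of the cells differed as well. Within the newborn library, where both sexes were present, Agtr2 stood at 79.2 CPM (75.4 to 83.2) in stromal cells with Y-linked UMIs only and at 78.4 CPM (76.0 to 80.8) in those with Xist only. Another 823 stromal cells had both and 1468 had neither. These are newborn levels, and the part of sex in the injured level was not tested.

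Agtr1a, the contractile receptor, had its highest level in mural-like cells in every normal library and was highest at 3 d. The more numerous stromal-like cells still held most of its UMIs, 76.1, 77.2, 75.8 and 67.3% from 3 d to 78 w. Mural-like cells held 15.6 to 25.5%. Mural-like cells had 172 UMIs and 55.5 CPM (47.6 to 64.5) at 3 d, 42 UMIs and 15.5 CPM (11.2 to 20.9) at 3 w, 14 UMIs and 6.53 CPM (3.57 to 11.0) at 16 w, and 14 UMIs and 6.99 CPM (3.82 to 11.7) at 78 w. The injured library gave 1 UMI in 112 mural-like cells. The 3 d level was 3.59 times the 3 w level (2.55 to 5.15) and 7.94 times the 78 w level (4.61 to 14.8). The 16 w and 78 w levels did not differ beyond counting error. Of the mural-like cells at 3 d, 32.4% had a UMI, compared with 1.43% of endothelial-like cells at median depths of 7249 and 5078 UMIs. The level in mural-like cells was between 635% and 1713% of the stromal one in the normal libraries, while the summed stromal markers there were at 22.6 to 29.7% of theirs.

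**Figure D3:**
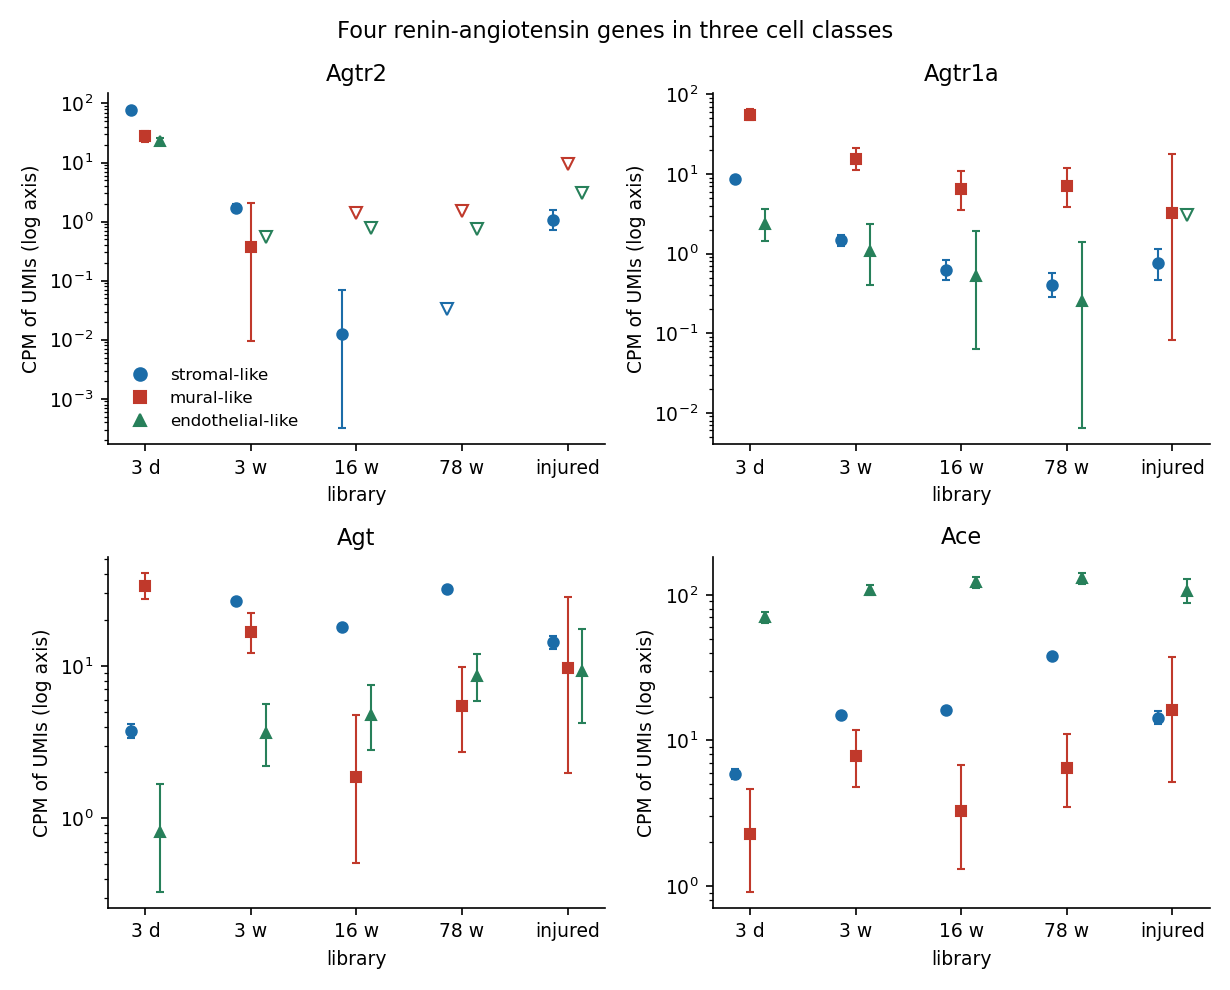
Agtr2, Agtr1a, Agt and Ace in stromal-like, mural-like and endothelial-like cells of the 5 libraries, in CPM of UMIs on log axes, with exact Poisson 95% intervals and open triangles at 3 counts where none was found. Agtr2 was highest in stromal-like cells, Agtr1a in mural-like cells and Ace in endothelial-like cells, and Agt was highest in mural-like cells at 3 d (33.6 CPM) and in stromal-like cells at 78 w (31.9 CPM).

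At 3 d, mural-like cells with Agtr1a had lower contractile and higher cycling genes than the rest. The median depths were 9192 UMIs in the 113 cells with a UMI and 6275 in the other 236. In the former, the contractile genes Myh11, Tagln and Cnn1 were at 0.324, 0.275 and 0.0548 of their level in the latter. Mki67 and Top2a, genes of dividing cells, were at 2.68 (2.08 to 3.46) and 1.89 (1.58 to 2.27) times theirs. Over the normal libraries together, 8 of the 10 genes with the largest ratios belong to cell division, from Ube2c at 10.9 to Tacc3 at 7.42, and the remaining ones were Coch and Cthrc1. Coch, the first of all, had 95 of 97 UMIs in 1 cell. This pooled comparison mixes age with Agtr1a, since 113 of its 167 cells came from the 3 d library. Summed contractile markers of the mural-like cells went from 6050 CPM at 3 d to 16585 CPM at 78 w, pericyte markers were at 6525 and 6589 CPM, and the part of this mixture in the lower Agtr1a level was not tested.

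In stromal-like cells Agtr1a was a lower signal that was also highest at 3 d. There were 839 UMIs and 8.74 CPM at 3 d (8.16 to 9.36), 166 UMIs and 1.47 CPM at 3 w, 50 and 0.623 CPM at 16 w, 37 and 0.408 CPM at 78 w, and 21 and 0.756 CPM (0.468 to 1.16) after injury. The 3 d level was 5.94 times that at 3 w (5.02 to 7.06) and 21.4 times that at 78 w (15.4 to 30.6). Between 16 w and 78 w the ratio of 0.655 had an interval of 0.416 to 1.02. Without integration of the libraries, stromal classes gave a 78 w level of 0.0179 of the 3 d level in place of 0.0467. In both classes the level at 3 w was below that at 3 d and above that at 16 w. The pericyte gene Rgs5 was also at least 2-fold lower in stromal-like cells at 3 w than at 3 d. It was at least 2-fold higher there at 16 w than at 3 w. The part of mural RNA in the stromal Agtr1a level was not tested.

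**Figure D4:**
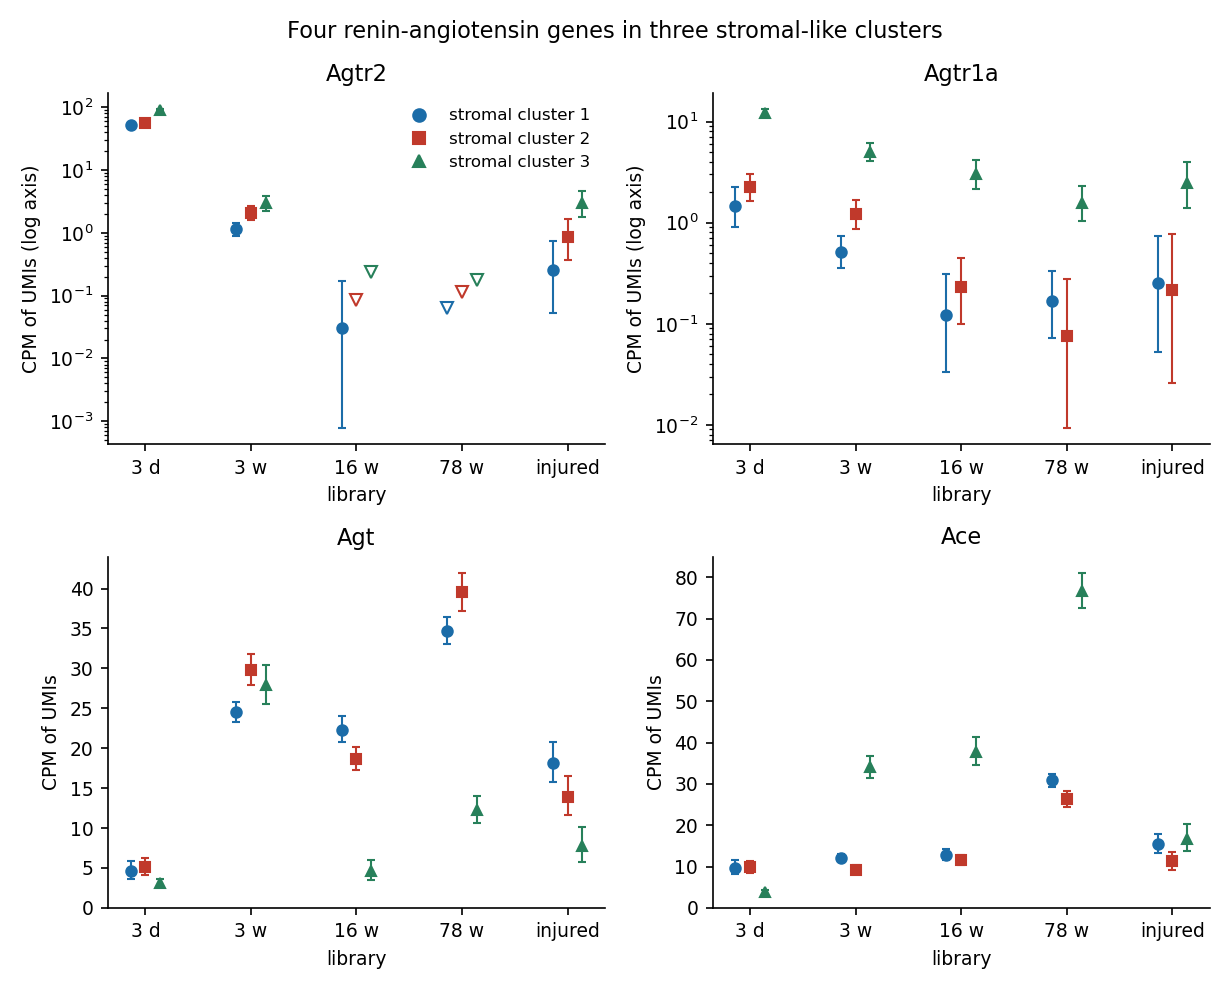
The 4 genes in the 3 stromal-like clusters of each library, in CPM of UMIs (log axes for both receptors, linear axes from 0 for Agt and Ace), with exact Poisson 95% intervals and open triangles at 3 counts where none was found. Agtr1a was highest in cluster 3 in all 5 libraries, while Ace in cluster 3 changed from the lowest of the 3 at 3 d (3.85 CPM) to the highest at 78 w (76.8 CPM).

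Stromal Agtr1a had its highest level in cluster 3 in each library. Its levels there were 12.3, 5.01, 3.04, 1.58 and 2.46 CPM in the order 3 d, 3 w, 16 w, 78 w and injured. Clusters 1 and 2 had at most 2.27 CPM, but at 3 w they held 32 and 39 UMIs beside 95 in cluster 3. At 3 d, stromal cells with an Agtr1a UMI had more of the adventitial-type markers Pi16 (2.00 times) and Ly6a (2.75 times) and less Fmod and Scx, a tendon transcription factor gene (0.329 and 0.326 times). They also had more of the pericyte potassium channel genes Abcc9 (3.66 times) and Kcnj8 (3.82 times).

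Agtr1a was found more often in newborn stromal cells that also had Agtr2. Of the 3789 cells with an Agtr2 UMI, 386 (10.2%) had an Agtr1a UMI, while 5.18% of the rest did. Scaled to the UMIs of the same cells, Agtr1a was at 11.2 CPM in Agtr2 cells (454 UMIs) and 6.95 CPM in the rest (385 UMIs). Agtr1a CPM itself differed between shallow and deep stromal cells at 3 d. Cells with neither Y-linked nor Xist UMIs (median 6657.5 UMIs) had 4.24 CPM, and cells with both (median 13319) had 9.83 CPM. The part of depth in the difference between Agtr2 cells and the rest was not tested. Over subclusters the receptors did not follow each other throughout. Subcluster 6 had the most of both, with 24.2 CPM of Agtr1a (20.6 to 28.3), but subcluster 5 (Gria2, Spock3, Lrrtm3) had 18.0 CPM (14.9 to 21.5) with 58.5 CPM of Agtr2, and the 2 Fgfbp1 groups had 2.01 and 2.26 CPM. The genes most like Agtr1a over the 33 combinations were Cacnb3 and Ppp1r1a (r = 0.89 each), Npas4 and Trpc4 (r = 0.87 each) and Wnt5b (r = 0.86).

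Agt, the ligand precursor, moved the other way in the stroma. Stromal-like cells had 357 UMIs and 3.72 CPM (3.34 to 4.13) at 3 d, 2996 and 26.6 CPM (25.6 to 27.6) at 3 w, 1443 and 18.0 CPM (17.1 to 18.9) at 16 w, and 2888 and 31.9 CPM (30.7 to 33.0) at 78 w. The injured stroma had 396 UMIs and 14.3 CPM (12.9 to 15.7). The 3 w level was 7.14 times the 3 d level (6.40 to 7.996) and the 78 w level 8.56 times (7.67 to 9.58). Between them the 16 w level dipped to 0.676 of the 3 w level (0.635 to 0.720). No adjacent ages overlapped in their intervals, and there was no steady climb.

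Mural Agt was highest at 3 d, where stromal Agt was lowest. In mural-like cells there were 104 UMIs and 33.6 CPM (27.4 to 40.7) at 3 d, 45 and 16.6 CPM (12.1 to 22.2) at 3 w, 4 and 1.87 CPM (0.508 to 4.78) at 16 w, and 11 and 5.49 CPM (2.74 to 9.83) at 78 w. The 3 d level was 6.11 times the 78 w level (3.28 to 12.6) and 2.02 times the 3 w level (1.41 to 2.94). With each cell weighted equally, the 78 w level was 0.0586 of the 3 d level in place of 0.164. At 3 d, mural Agt was at 903% of the stromal level, where the stromal markers were at 29.7%. By 78 w it was at 17.2% and the stromal markers at 23.6%, so the aged mural share was no higher than that of the summed markers. Mural-like cells with an Agt UMI at 3 d, 71 of 349, had more of the smooth muscle gene Myh11 (1.93 times, 1.63 to 2.29) and less Abcc9 (0.749 times). Endothelial-like cells held 7, 20, 18 and 34 Agt UMIs in the normal libraries. Their Agt level was 13.6 to 26.9% of the stromal one, and their stromal markers were at 18.5 to 29.0%.

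The 3 stromal-like clusters differed in Agt by age. At 3 d cluster 3 had 3.11 CPM beside 4.61 and 5.13 CPM in clusters 1 and 2. At 3 w it had 27.9 CPM beside 24.5 and 29.8 CPM. At 16 w it had 4.64 CPM beside 22.3 and 18.7 CPM, and at 78 w 12.3 CPM beside 34.7 and 39.5 CPM. The 78 w cells with an Agt UMI had less of the adventitial-type markers Pi16 (0.108 times), Ly6a (0.285 times) and Dpt (0.387 times). At 3 w the same held for Pi16 (0.0882 times) and Ly6a (0.154 times).

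Ace, the converting enzyme, was highest in endothelial-like cells in all 5 libraries. They had 598 UMIs and 70.0 CPM (64.5 to 75.8) at 3 d, 595 and 108 CPM (99.4 to 117) at 3 w, 462 and 122 CPM (111 to 133) at 16 w, and 515 and 130 CPM (119 to 141) at 78 w. The injured endothelium had 104 UMIs and 107 CPM (87.2 to 129). The 78 w level was 1.85 times the 3 d level (1.64 to 2.09), and intervals of the 3 w, 16 w and 78 w levels overlapped from each age to the next. After injury the level was 0.877 of that at 16 w (0.702 to 1.09).

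Endothelial-like cells with Ace had more of the arterial genes and of the venular genes Vwf and Selp, and less of the lymphatic ones. Over the 4 normal libraries, 1208 endothelial-like cells with an Ace UMI were compared with 1986 without, at median depths of 6537 and 4429.5 UMIs. Age is mixed into this comparison, since the Ace level differed between the libraries. By the rule, the first genes were Wfdc12, Ccl5 and Gkn3. Wfdc12 and Ccl5 were found in only 6 and 5 of the Ace cells, with 38 of 67 and 45 of 54 UMIs in 1 cell. Gkn3, known from small arteries, had a ratio of 11.6 (7.53 to 18.6) and was found in 38 of the Ace cells, and the arterial gap junction gene Gja5 had 5.41 and was found in 82. All 4 arterial markers were higher, with Sema3g at 2.15, Gja4 at 1.63 and Hey1 at 1.35 times. The venular markers Vwf and Selp were at 1.77 and 1.33 times. Lyve1, Mmrn1 and Ccl21a, genes of lymphatic vessels named after their values were seen, were at 0.223, 0.290 and 0.434. The lowest ratios of all were those of the hemoglobin genes Hbb-bt, Hba-a1, Hba-a2 and Hbb-bs, from 0.007155 to 0.0130, and summed erythroid markers of endothelial-like cells were 25228 CPM at 3 d and 9.43 to 510 CPM at the later normal ages. The part of hemoglobin RNA in the other ratios was not tested.

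Stromal Ace was low at 3 d and higher at each later normal age. Counts were 564 UMIs and 5.88 CPM (5.40 to 6.38) at 3 d, 1689 and 15.0 CPM (14.3 to 15.7) at 3 w, 1297 and 16.2 CPM (15.3 to 17.1) at 16 w, and 3462 and 38.2 CPM (36.9 to 39.5) at 78 w. The injured stroma had 398 UMIs and 14.3 CPM (13.0 to 15.8). The 78 w level was 2.36 times the 16 w level (2.22 to 2.52) and 6.50 times the 3 d level (5.94 to 7.11). Endothelial markers in the stromal-like cells summed to 33.1 CPM at 3 d and 13.0 CPM at 78 w. The part of endothelial RNA in the stromal Ace level was not tested. Cluster 3 had 3.85, 34.0, 37.8, 76.8 and 16.8 CPM in the order 3 d, 3 w, 16 w, 78 w and injured. Clusters 1 and 2 had 9.71 and 9.82 CPM at 3 d and 30.8 and 26.3 CPM at 78 w. The 78 w cells with an Ace UMI had 5.37 times the Pi16 and 2.46 times the Ly6a of the others, the reverse of the Agt cells.

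The rest of a list of 40 renin-angiotensin and kinin genes was read in the same cells. A gene was counted in a comparison when the library with the higher level had at least 30 UMIs, and called when the levels differed by at least 2-fold. From 3 d to 3 w in the stroma, 6 of 31 counted list genes were lower, against 21.1% of all 14671 counted genes. These were Agtr2, Agtr1a, Cma1, Mme, Arrb2 and Rgs5. Agtr2 was selected on a fall that includes this step, so its place in the count follows from that choice. Another 10 were higher, against 16.8% of all counted genes. The median log2 ratio was -0.06 over the list and -0.06 over all genes.

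**Figure D5:**
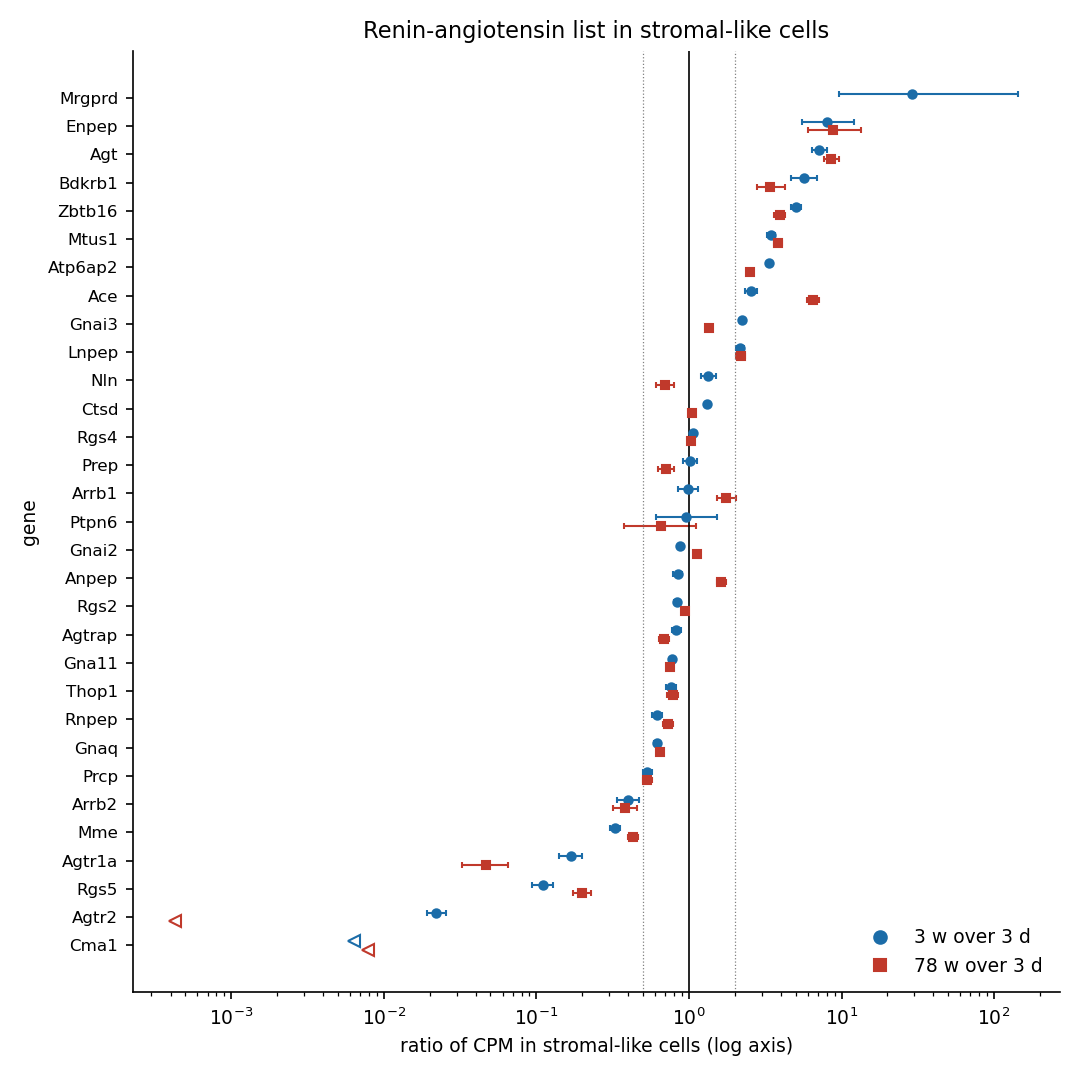
Ratio of CPM in stromal-like cells at 3 w (circles) and 78 w (squares) over 3 d, on a log axis, for the list genes counted at 3 w, with exact 95% intervals and open triangles for upper bounds against 0 UMIs. Dotted lines mark 2-fold; both ratios share the 3 d library, and Agtr2, Cma1, Rgs5 and Agtr1a lie lowest.

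The list genes with higher levels at 3 w included peptidases, receptors and partner proteins. Enpep, the gene of aminopeptidase A, which trims angiotensin II, went from 0.313 to 2.51 CPM. Its main site was mural, with 10.0 CPM at 3 d and 81.1 CPM at 3 w. Mtus1, whose product binds the type 2 receptor, went from 13.8 to 47.5 CPM, and Zbtb16, a transcription factor gene whose product also binds that receptor, from 7.85 to 39.4 CPM. These partners were thus higher at 3 w, where Agtr2 was lower. Atp6ap2, the prorenin receptor and a proton pump subunit, went from 65.4 to 219 CPM, and Lnpep, the angiotensin IV receptor, from 14.3 to 31.0 CPM. Mrgprd, a receptor for alamandine, had 3 UMIs at 3 d, 102 at 3 w and 6 to 8 in the other libraries. Bdkrb1, a kinin receptor gene, went from 1.23 to 6.95 CPM.

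Among the list genes with lower levels, Mme went from 23.0 to 7.56 CPM in the stroma and stayed between 6.77 and 9.89 CPM afterwards. Cma1, a mast cell chymase that can also make angiotensin II, is a result of few cells. Of its 1155 UMIs at 3 d, 1030 lay in 5 cells, all 5 with UMIs of other mast cell genes. Rgs5, a defining pericyte gene, was at 14.8 CPM in the 3 d stroma and 1.62 CPM at 3 w. Ptpn6 and Gnaq were among those with no 2-fold difference.

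Later changes in the stroma were fewer. From 3 w to 16 w 4 of 30 list genes were lower (Agtr2, Agtr1a, Mrgprd and Bdkrb1), where 7.15% of all counted genes were, and 2 were higher (Arrb1 and Rgs5), where 6.61% were. This step too is part of the fall that selected Agtr2, so its place among the 4 follows from that choice. From 16 w to 78 w 0 of 28 were lower, where 2.24% of genes were, and Ace alone was higher, where 2.74% were. The median log2 ratios of the list were -0.0016 and -0.09, and those of all genes -0.09 and -0.07. Over the whole span, 78 w against 3 d, 6 of 30 were lower (23.1% of all) and 8 higher (14.7% of all). That contrast is the one by which Agtr2 was selected, so nothing is read from it. The list median was -0.22 and that of all genes -0.19 on the log2 scale.

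In vessel cells the list was mixed. In mural-like cells at 78 w against 3 d, 3 of 21 list genes were lower (Agt, Agtr1a and Agtr2), beside 20.4% of all counted genes, and 5 were higher (Enpep, Lnpep, Zbtb16, Rgs2 and Rgs4), beside 15.0%. Rgs4, which damps G protein signals, went from 81.1 to 397 CPM. In endothelial-like cells 4 of 25 were lower (Agtr2, Prcp, Rgs2 and Rgs5), beside 16.9%, and 7 were higher, beside 13.4%. At 3 d, Agtr2 was at 29.8% of its stromal level in endothelial-like and 35.9% in mural-like cells, beside stromal markers at 29.0% and 29.7%. Agt, among the 7 higher in endothelial-like cells, had 7 UMIs there at 3 d. The part of stromal RNA in these calls was not tested. Agtr2 was selected on its stromal fall between the same libraries, so its calls here are a description. Prcp, a carboxypeptidase gene that also acts on angiotensin II, went from 235 to 88.1 CPM in endothelial-like cells. The medians of the lists were 0.08 in mural-like and -0.09 in endothelial-like cells, those of all genes -0.23 and -0.13.

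List genes were read in the same way in the injured stroma. Against 3 w, 8 of 30 list genes were lower (Mrgprd, Lnpep, Thop1, Nln, Mtus1, Zbtb16, Gnai3 and Bdkrb1), beside 18.2% of all counted genes, and 1 was higher (Rgs5), beside 6.47%. Against 16 w, 7 of 28 were lower (Lnpep, Thop1, Mtus1, Zbtb16, Gnai3, Bdkrb1 and Rgs2), beside 15.5%, and 1 was higher (Agtr2), beside 7.23%. With a 4-fold limit 1 of 30 list genes was lower against 3 w (Bdkrb1), beside 2.61% of all counted genes. In that comparison 1 was higher (Rgs5), beside 1.91%. Against 16 w 1 of 28 was lower (Zbtb16), beside 2.68%, and 1 was higher (Agtr2), beside 1.97%. The list medians were -0.62 and -0.35, and those of all genes -0.35 and -0.30. Zbtb16 had 13.7 CPM after injury, beside 39.4 at 3 w and 57.2 at 16 w, and Mtus1 18.8 CPM beside 47.5 and 39.2. Lnpep had 14.2 CPM beside 31.0 and 32.4. Agt was at 0.793 of the 16 w level (0.708 to 0.887) and Ace at 0.887 (0.791 to 0.993).

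Several genes for the formation or action of angiotensins, and the kininogen genes of the kinin branch, were scarcely detected at this depth. Ren1, the renin gene, had 16, 1, 0, 0 and 3 UMIs in whole libraries in the order 3 d, 3 w, 16 w, 78 w and injured, all in stromal-like cells. Agtr1b had 20, 0, 1, 4 and 4. Mas1, the receptor of angiotensin 1-7, had 5, 1, 2, 3 and 1. Kng1, a kininogen gene, had 0 UMIs in every library, and Kng2 at most 3. Levels that low set no order between libraries.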

How the data were processed

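Cells of 5 mouse TMJ disc libraries were profiled with the 10x Genomics 3′ kit. The deposited matrices hold raw UMI counts per gene and cell made by the authors with Cell Ranger; the matrix headers give version 4.0.0 and the submitters' processing notes 3.1. The files hold no fold changes or p-values.

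Cells were kept with over 200 UMIs, after the study's methods, and with a mitochondrial share of 30% or less, a limit added here. Libraries were integrated and clustered in Seurat 5.3.0 (R 4.3.3; 2000 variable features, less 8 renin-angiotensin genes, 30 dimensions, resolution 0.2), and the 3 d stromal-like cells again at resolution 0.3. Clusters were named from the marker lists by a scoring rule set after the clusters were seen. A list other than the stromal one needed a mean log2 fold of at least 3, at least 3 raised markers and a gene among the 10 leading genes. The cycling name came first and needed no minimum number of markers. Clusters that passed for several lists, or for none at a median depth far below the library's, stayed unnamed. The remaining clusters with at least 3 raised stromal markers were named stromal-like. Scrublet (scanpy 1.11.5) called under 0.5% of cells doublets and was taken as not having worked, so no cell was removed as a doublet.

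UMIs were summed per class and library and given as CPM. The 3′ method counts 1 tag per molecule, so levels of different genes were compared without their lengths. Poisson intervals for sums, Clopper-Pearson intervals for shares and conditional intervals for ratios are exact (scipy 1.17.1), at 95%, and counts of 0 were bounded at 3. PCR and capture leave other errors uncovered. With 1 library per condition no test between conditions was run. The step that computes ratios was checked on simulated counts with known fold changes.

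The members and all lists were chosen with earlier results of these data known. Genes named are the 4 members, the 40 listed, the 5 most like each receptor, and the 10 with the largest ratio of CPM between cells with and without a UMI of Agtr2 (3 d stromal, at least 100 UMIs), Agtr1a (mural) or Ace (endothelial, at least 50 UMIs); others are named as chosen after their values were seen, as are all genes of the further splits by Agtr2, Agtr1a, Agt or Ace. Some genes that these rules name are not reported here. Gene models are GENCODE M21. Alternatives in cell filter, resolution, integration, weighting, doublets, barcodes, depth, fold and minimum count are given in the closing section. Unnamed cluster 5 was left out of the ratios between libraries, but kept in the description of Agtr2 and in the combinations of library and class.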

Additional observations from a re-analysis of the deposited data

Results flagged for a closer look

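Agt had opposite directions in different cell classes of the same libraries. From 3 d to 3 w its level was 7.14 times in stromal-like cells and 4.43 times in endothelial-like cells, while it was 0.494 times in mural-like cells. From 3 d to 78 w the ratios were 8.56 in stromal-like, 10.4 in endothelial-like and 0.164 in mural-like cells. The difference between the classes was not tested, since each class and age is 1 library, and both comparisons share the 3 d library. The endothelial ratios rest on 7 UMIs at 3 d, and the endothelial levels, 13.6 to 26.9% of the stromal ones in the normal libraries, stood beside stromal markers at 18.5 to 29.0%. The mural level at 3 d stood at 903% of the stromal one, beside stromal markers at 29.7%. In mural-like cells of the same libraries the summed contractile markers were 6050 CPM at 3 d and 16585 CPM at 78 w, and their part in the lower Agt level was not tested.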

How the results depend on the processing

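Of 101 values recomputed under an alternative, 66 stayed within the error or fold allowed, 34 moved and 1 reversed. Taking all cells of a library in place of 1 class turned mural Agt at 78 w over 3 d from 0.164 to 6.81; it also gave 67.0 CPM for 3 d Agtr2 (77.4 in stromal-like cells), 8.82 CPM for mural 3 d Agtr1a (55.5), and 78 w over 3 d ratios of 0.0592 for Agtr1a in mural-like cells (0.126), 6.81 for stromal Agt (8.56), 3.85 for endothelial Ace (1.85) and 3.85 for stromal Ace (6.50). Without integration the values were 75.5 CPM for Agtr2 at 3 d, 0.0179 for stromal Agtr1a (0.0467), 9.94 for stromal Agt, 2.18 for endothelial Ace and 4.70 for stromal Ace. Weighting cells equally gave 80.6 CPM for Agtr2, 0.0586 for mural Agt, 1.64 for endothelial Ace and 5.49 for stromal Ace. Resolution 0.5 gave 1.58 for endothelial Ace. Weighting the 3 stromal-like clusters equally gave Agtr2 65.9 CPM at 3 d and a 3 w over 3 d ratio of 0.0312 (0.0221). For Agtr2 at 3 d, cells with Y-linked UMIs only gave 79.2 CPM and cells without subcluster 6 gave 66.0 CPM; both were chosen after seeing the data. Thinning to 2000 UMIs gave an Agtr2 share of 13.1% in place of 7.24% at 1000. The causes were not tested.

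Of 32 list counts, 13 moved. Agtr2, selected on its stromal fall over age, is among the genes lower from 3 w to 16 w and lower in endothelial-like cells. With a 4-fold limit 5 of 31 were higher in the stroma at 3 w (10 at 2-fold), beside 5.43% of all counted genes. From 3 w to 16 w 2 of 30 were lower (4), beside 1.2%, and 0 higher (2), beside 1.24%. From 16 w to 78 w 0 of 28 were higher (1), beside 0.552%. From 3 d to 78 w 3 of 30 were higher (8), beside 5.89%. After injury 1 of 30 was lower against 3 w (8), beside 2.61%, and 1 of 28 against 16 w (7), beside 2.68%. In mural-like cells at 78 w against 3 d the 4-fold limit gave 2 of 21 higher (5), beside 5.92%. In endothelial-like cells it gave 1 of 25 lower (4), beside 6.2%, and 3 higher (7), beside 4.21%. A minimum of 100 UMIs gave 2 of 12 higher in mural-like cells, beside 15.6%, and 4 of 17 higher in endothelial-like cells, beside 13.3%. After injury against 16 w it gave 0 of 26 higher in the stroma (1), beside 5.69%.

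Scrublet's own calls were not used as an alternative, since they marked at most 2 cells per library; the 6% of cells with the highest scores were left out instead, a choice made after seeing the data. The stricter cell filter kept the clusters as they were. No paired analysis was possible because each condition was 1 library, and for the same reason no replicate was left out. Depth limits the injured library most, with a median of 3299 UMIs per cell and 112 mural-like cells.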

Other observations

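Mgp, which encodes matrix Gla protein, an inhibitor of mineral deposition in cartilage and vessels, had the level most like that of Agt over the 33 combinations of library and class (r = 0.79), with 857 CPM in the 3 d stroma and 5444 CPM at 78 w. Camk4, Col11a2 and Itga10, genes of calcium signaling, cartilage collagen and a collagen receptor, were among the 10 most like Agt (r = 0.66 each). Their stromal levels were 2.76, 3.51 and 8.28 CPM at 3 d and 52.1, 18.8 and 39.4 CPM at 78 w. The genes most like Ace were Arhgef28 (r = 0.87) and Eogt (r = 0.86), and Plvap, a gene of endothelial diaphragms, followed at r = 0.85. These genes were named after their values were seen, and the combinations share 5 libraries.

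Bdkrb2, a kinin receptor gene, had 1, 33, 13, 9 and 0 UMIs in endothelial-like cells in the order 3 d, 3 w, 16 w, 78 w and injured.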
